A study of Mus musculus with 24 samples.

Results

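Prostaglandin synthesis and signalling was described with 10 genes in the mouse microglial line SIM-A9. They were chosen by symbol and matched through Ensembl identifiers to 10 of the 54838 rows of a raw count table. The genes were Pla2g4a, Ptgs1, Ptgs2, Ptges, Ptges2, Ptges3, Tbxas1, Ptger2, Ptger4 and Ptgir. Of these, 9 were among the 13116 genes tested and Ptger2 was not, because it held 1 read in all.

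The study asked how probes used in neuroscience alter microglial RNA, with lipopolysaccharide (LPS) as the positive control for inflammation. Poly-A RNA was sequenced from 8 groups of 3 libraries, with 17364272 to 29259221 counts per library. All cells spent 2 h without serum in 270 uL of medium. Treated wells then received 30 uL of a concentrated probe or LPS sample, and RNA was extracted after a further 2 h. What was added to control wells, if anything, is not stated here. The groups were untreated control cells and cells given LPS, a bacterial cell wall component, (GT)6 SWCNT or COOH SWCNT (a carboxylated preparation), both single-walled carbon nanotubes, Fura-2, a calcium indicator, DiBASC2 or Di-2-ANEPEQ, both voltage-sensitive dyes, or AAV, an adeno-associated virus. The doses, the AAV serotype and cargo, and whether the 3 libraries of a group came from separate cultures are not given in the sources used here. The p-values therefore measure the spread between these libraries, which may be technical.

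Prostaglandins are short-lived lipid signals. Cytosolic phospholipase A2 frees arachidonic acid from membranes, a cyclooxygenase turns it into prostaglandin H2, and a terminal synthase turns that into prostaglandin E2, thromboxane A2 or another prostanoid, which then acts on G protein-coupled receptors of the same or nearby cells. Inducible cyclooxygenase, encoded by Ptgs2, is a well-known early gene of activated microglia and macrophages, and it is one of the targets of nonsteroidal anti-inflammatory drugs.

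The labelled cell type was checked against fixed marker genes. All 13 microglia and macrophage markers passed the filter on low counts, and their summed level ranged from 2805 to 3122 CPM, the counts scaled to a common library size, over the 24 libraries. Their levels were uneven. Cd68 had a median of 836 CPM, while P2ry12 ran from 1.54 to 3.26, Tmem119 from 2.75 to 5.32 and Aif1 from 2.68 to 5.27 CPM. No neuron, astrocyte, endothelial or fibroblast marker passed it, and the summed level of each of these lists stayed under 1 CPM in every library. Among oligodendrocyte markers, Mbp passed at 3.04 to 5.43 CPM, while Mog was at 0 in all libraries. Because the samples are bulk cultures, fewer cells expressing a gene and less RNA per cell cannot be told apart.

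The starts of 4 genes are shown because 3 of them, Ptgs2, Ptges and Ptger4, were higher after LPS and the last, Ptges3, was the only one of the 10 with a kappaB match in the window searched. Each sequence is the 250 bases before the RefSeq start on GRCm38.p6, read 5′ to 3′ on the gene's strand. Capitals mark the motif matches that a search of both strands found. The windows are chr1:150099781-150100030 on the plus strand for Ptgs2, chr2:30903298-30903547 on the minus strand for Ptges, chr15:5244188-5244437 on the minus strand for Ptger4 and chr10:128058732-128058981 on the plus strand for Ptges3.
Ptgs2: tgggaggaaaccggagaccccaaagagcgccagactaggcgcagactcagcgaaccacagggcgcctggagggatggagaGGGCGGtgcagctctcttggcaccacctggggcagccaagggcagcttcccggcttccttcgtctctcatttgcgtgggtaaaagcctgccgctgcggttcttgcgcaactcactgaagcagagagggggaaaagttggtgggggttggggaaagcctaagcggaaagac
Ptges: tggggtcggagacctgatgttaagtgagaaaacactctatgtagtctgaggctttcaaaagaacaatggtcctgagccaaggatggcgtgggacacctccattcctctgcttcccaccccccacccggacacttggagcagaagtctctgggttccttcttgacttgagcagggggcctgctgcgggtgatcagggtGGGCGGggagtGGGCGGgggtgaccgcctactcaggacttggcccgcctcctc
Ptger4: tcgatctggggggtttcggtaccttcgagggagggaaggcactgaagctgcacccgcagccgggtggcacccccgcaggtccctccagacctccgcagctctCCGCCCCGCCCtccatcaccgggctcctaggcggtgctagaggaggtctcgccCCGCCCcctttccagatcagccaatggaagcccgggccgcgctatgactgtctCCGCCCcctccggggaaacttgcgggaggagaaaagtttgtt
Ptges3: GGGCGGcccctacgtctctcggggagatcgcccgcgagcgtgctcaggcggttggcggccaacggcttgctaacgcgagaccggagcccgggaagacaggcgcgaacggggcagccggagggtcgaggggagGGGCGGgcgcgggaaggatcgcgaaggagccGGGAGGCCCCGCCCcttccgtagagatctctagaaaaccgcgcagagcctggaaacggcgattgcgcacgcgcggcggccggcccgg

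The capitals in Ptgs2, Ptges and Ptger4 are GC boxes, the letters GGGCGG on either strand, the sequence that Sp1 family factors bind. Such a box lay within the 300 bases from 250 before to 50 after the start in 35.9% of all 32544 distinct windows in the RefSeq table. In Ptges3 the run GGGAGGCCCCGCCC joins a kappaB match at -87 to -78, the element bound by NF-kappaB, to a GC box at -79 to -74 that overlaps it. A kappaB match was present in 8.49% of all windows and in none of the windows of the other 9 genes. Just after its annotated RefSeq start, Ptgs2 held the core of a cAMP response element (CGTCA, positions 14 to 18). It overlapped an E-box (CACGTG, positions 17 to 22). Where transcription starts in these cells was not measured, so before and after refer to the annotation and do not show whether a stretch is transcribed. Both motifs lie in the short stretch given next. They are in capitals in the stretch chr1:150100038-150100058 on the plus strand:
Ptgs2 after the start: ccactaCGTCACGTGgagtcc
CGTCA was present in 20.9% and CACGTG in 7.17% of all windows. Among the other genes, CGTCA was also found at positions 12 to 16 of Ptges3 and CACGTG at -77 to -72 of Ptges2. TATAAA (13.6% of windows) was found in windows of Pla2g4a and Tbxas1, TGANTCA (7.79%) in Tbxas1, and GCGTGGGCG (0.618%) in none. A match describes letters in these windows only, and binding was not measured.

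**Figure D1:**
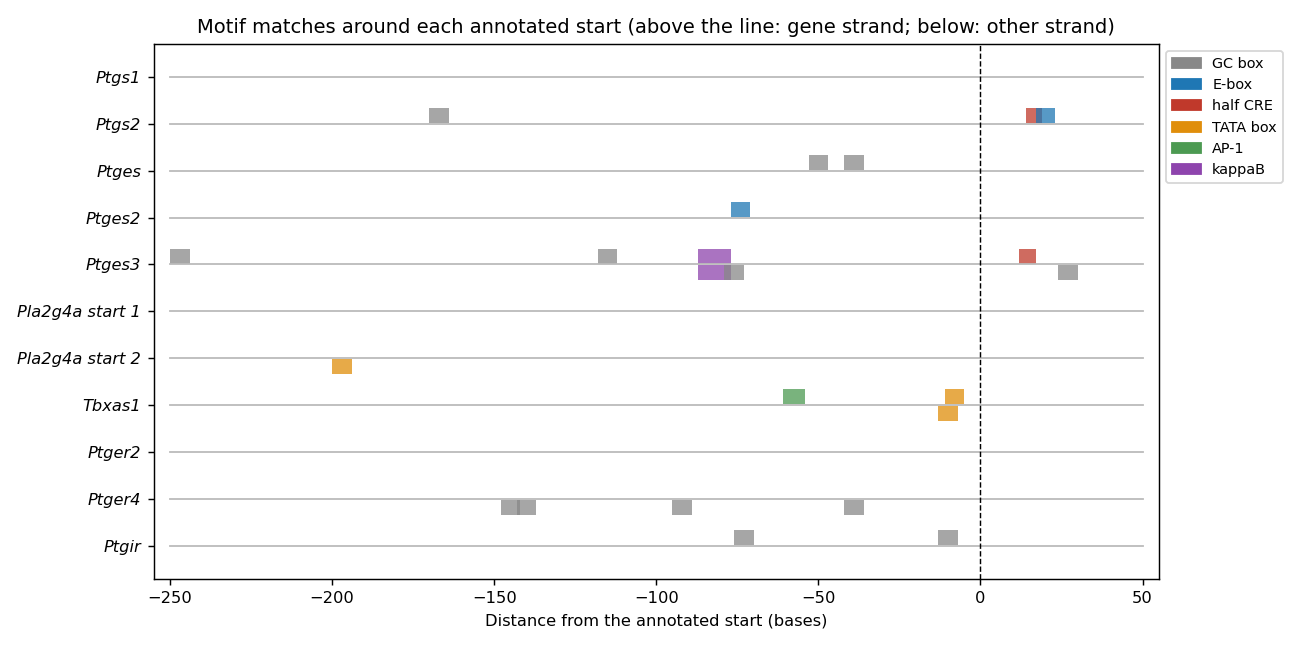
Motif matches on either strand in the window from 250 bases before to 50 bases after the RefSeq start of each gene, with distance from the start in bases on the horizontal axis and 1 row per window. GC boxes fall in the windows of 5 genes, and the kappaB match falls in Ptges3.

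The level of each gene in untreated cells was compared as CPM per kilobase of exonic length (GENCODE M21). Ptges3, which encodes cytosolic prostaglandin E synthase, also known as the Hsp90 co-chaperone p23, was by far the most abundant at 114 ± 8.04 CPM per kilobase (SD, n = 3). Ptgir followed at 28.1 ± 0.721, Ptgs1 at 26.8 ± 1.02 and Pla2g4a at 23.5 ± 1.12 CPM per kilobase. The libraries of Ptgir and Ptgs1 overlapped on this scale, so their order is not resolved. Ptges2 at 9.0 ± 0.132 and Ptgs2 at 8.85 ± 0.503 CPM per kilobase overlapped too, and Ptger4 lay lower at 3.96 ± 0.244. Tbxas1 at 0.143 ± 0.0237 and Ptges at 0.142 ± 0.0532 CPM per kilobase overlapped and were the lowest of the genes tested. Untreated cells held RNA for the release step, for both cyclooxygenases, for the prostaglandin E synthases Ptges2 and Ptges3, and for the prostacyclin and EP4 receptors.

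**Figure D2:**
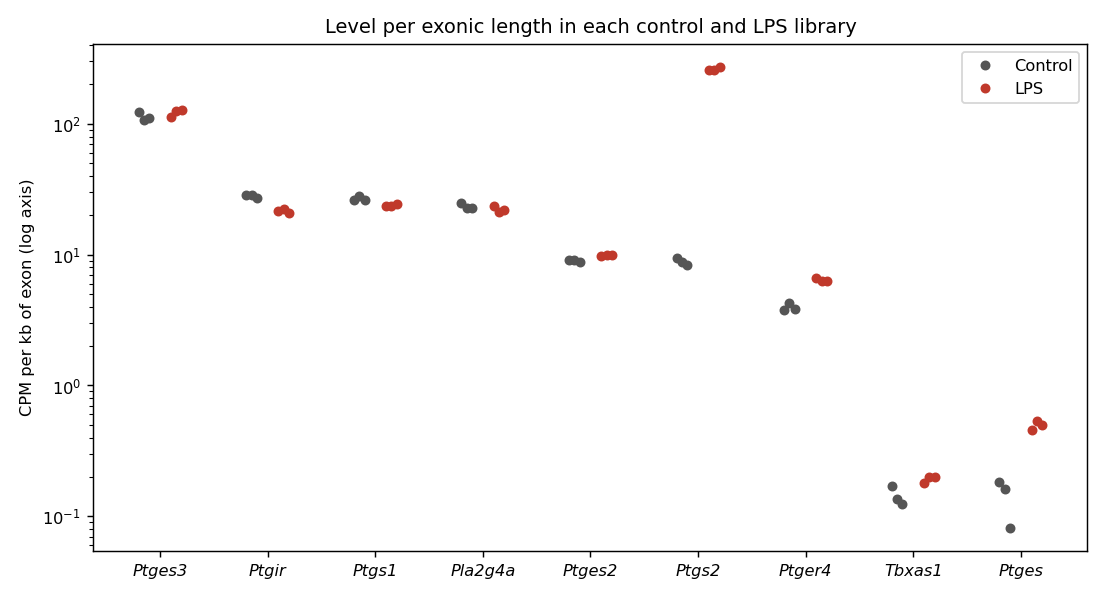
Level of the 9 tested genes per kilobase of exonic length in each control and LPS library, in CPM per kilobase on a logarithmic axis. Points are libraries, and the order in control runs from Ptges3 at 114 to Ptges at 0.142, with Ptgs2 the one gene that changes its place by several ranks in LPS.

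LPS changed 5 of the 9 tested genes by edgeR's quasi-likelihood test at a Benjamini-Hochberg adjusted p under 0.05, while it changed 28.3% of all tested genes. Ptgs2, Ptges and Ptger4 rose (3 of 9, against 13.8% of all genes), and Ptgs1 and Ptgir fell (2 of 9, against 14.5%). Higher genes made up 48.7% of all genes called in LPS, and 35.4% with upper-quartile factors. The 9 genes had a median log2 fold change of 0.13, against -0.01 over all tested genes. All contrasts with control share the same 3 control libraries, so their results are not independent of one another.

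**Figure D3:**
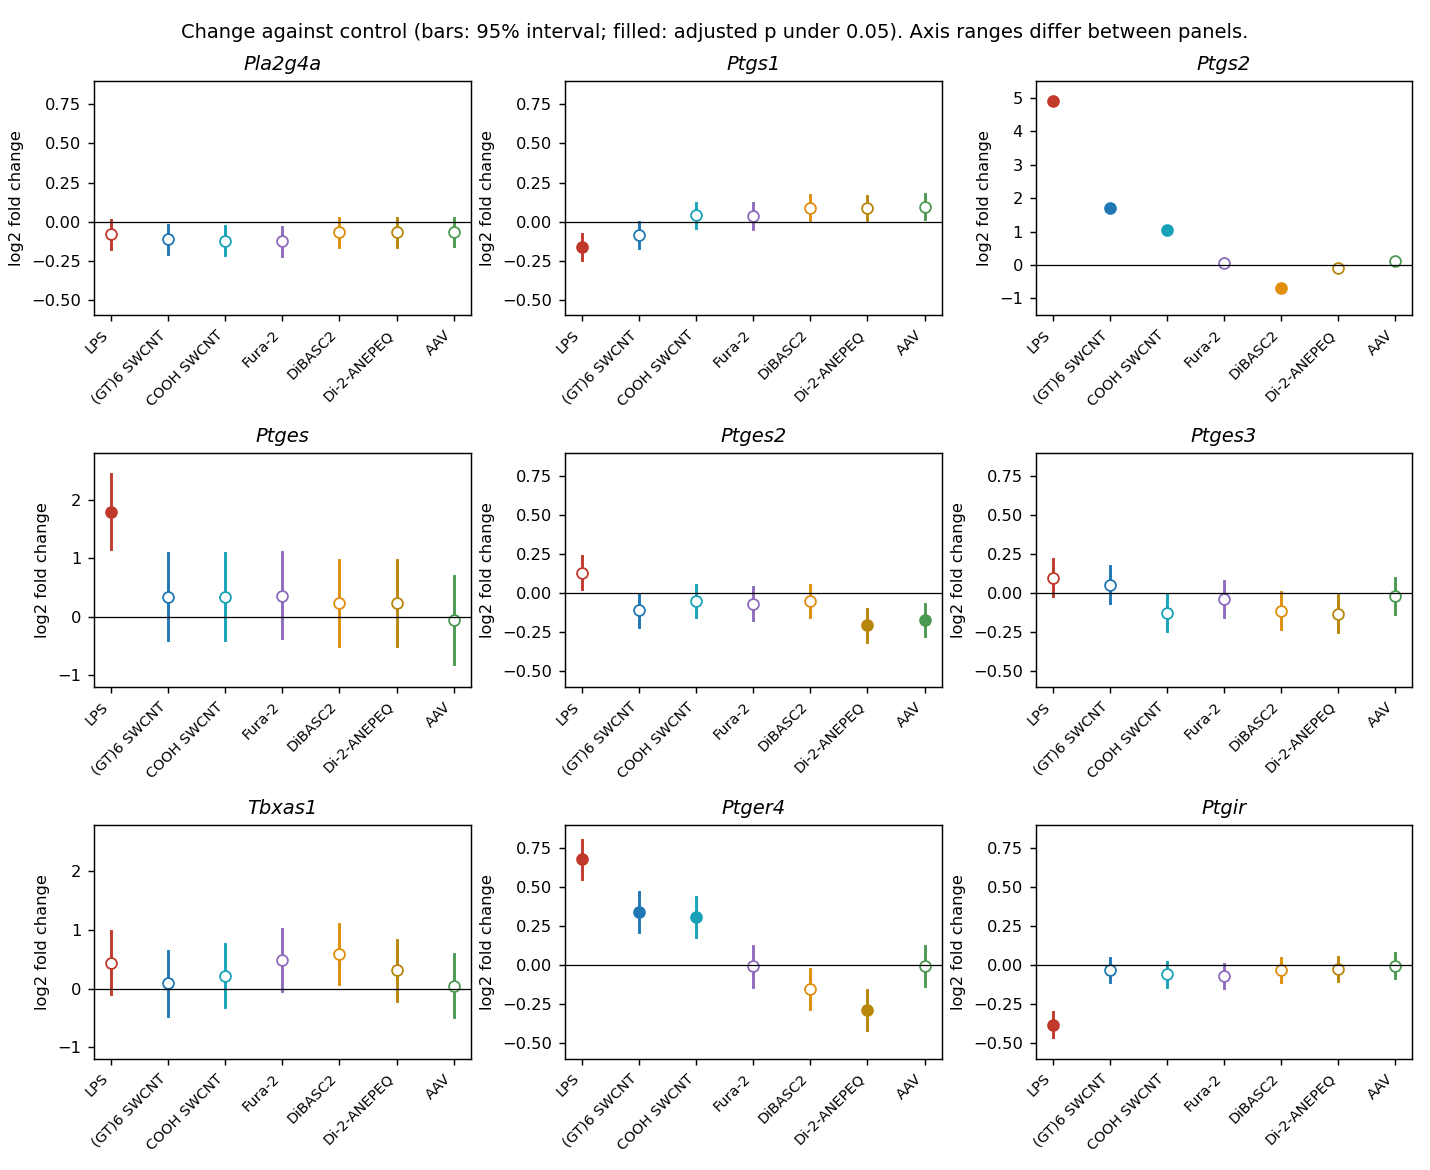
Change of each tested gene against control in the 7 treated groups, as log2 fold change with 95% confidence intervals, filled where the adjusted p was under 0.05. Ptgs2 spans from -0.69 in DiBASC2 to 4.90 in LPS, while most other points lie near 0.

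Pla2g4a (ENSMUSG00000056220.14, chromosome 1, 149829618 to 149961290, minus strand, GENCODE M21 on GRCm38) encodes the cytosolic phospholipase A2 that releases arachidonic acid. Its levels were 158, 146 and 146 CPM in the control libraries and 150, 135 and 140 CPM in the LPS libraries, which overlap. The log2 change in LPS was -0.08 ± 0.05 (SE) and did not pass the test (adjusted p = 0.208). Over the other treatments the group means lay between 137 and 143 CPM, all below the control mean of 150 ± 7.13 CPM (SD, n = 3), and in no treatment did the gene pass. The 95% interval of its log2 change was -0.17 to 0.01 in LPS and -0.22 to -0.03 in COOH SWCNT, where the adjusted p was 0.0525. Without COOH SWCNT replicate 3, Pla2g4a passed in COOH SWCNT (log2 -0.15, adjusted p = 0.0269), and without (GT)6 SWCNT replicate 3 it passed in (GT)6 SWCNT (log2 -0.14, adjusted p = 0.0477). With length and GC trends removed it passed in COOH SWCNT too (adjusted p = 0.0454). Over all alternatives its adjusted p ranged from 0.0269 to 0.402 in COOH SWCNT and from 0.0477 to 0.525 in (GT)6 SWCNT.

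Ptgs1 (ENSMUSG00000047250.13, chromosome 2, 36230426 to 36252272, plus strand) encodes the constitutive cyclooxygenase. It measured 102, 109 and 101 CPM in control and 91.7, 91.7 and 95.4 CPM in LPS. The LPS libraries all lay below the control libraries, a log2 change of -0.16 ± 0.04 (adjusted p = 0.00199), which is 10.7% less. With (GT)6 SWCNT it read 94.9, 99.5 and 100 CPM, also without overlap with control, but the change of -0.09 ± 0.04 did not pass (adjusted p = 0.143). COOH SWCNT libraries, at 109, 108 and 103 CPM, overlapped control. In the remaining groups the means were 107 to 111 CPM, and none of these changes passed. About 2.63% of the 50-base words of Ptgs1 transcripts also occur in Gm43621, which overlaps it on the other strand and held at most 3 counts per library.

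Ptgs2 (ENSMUSG00000032487.8, chromosome 1, 150100031 to 150108227, plus strand) encodes the inducible cyclooxygenase and had the widest range of the 10 genes. The control libraries held 43, 40.2 and 38.4 CPM, and the LPS libraries 1190, 1192 and 1246 CPM. The (GT)6 SWCNT libraries held 133, 135 and 132 CPM. COOH SWCNT libraries held 85.7, 89.6 and 77.8 CPM. These 4 groups did not overlap and were ordered LPS, (GT)6 SWCNT, COOH SWCNT and control.

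Against control, Ptgs2 rose 29.8-fold with LPS (log2 4.90 ± 0.06, adjusted p = 3.33e-39). The rise was 3.29-fold with (GT)6 SWCNT (log2 1.72 ± 0.06, adjusted p = 5.41e-24) and 2.08-fold with COOH SWCNT (log2 1.06 ± 0.06, adjusted p = 9.46e-17). The neighbours in that order were also tested directly. The (GT)6 SWCNT level was below that of LPS (log2 -3.18 ± 0.05, adjusted p = 1.87e-34), and it was 1.58-fold that of COOH SWCNT (log2 0.66 ± 0.05, adjusted p = 5.88e-12).

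Ptgs2 fell in a single treated group. The DiBASC2 libraries held 24.8, 25.7 and 24.6 CPM, all below every other library of the series, a log2 change of -0.69 ± 0.06 against control (adjusted p = 1.10e-09), or 38.2% less. The other voltage dye, Di-2-ANEPEQ, gave 42, 35.6 and 35.9 CPM, which overlapped control (log2 -0.09, 95% interval -0.21 to 0.03). In a contrast of the 2 dyes that was added after the data had been seen, Ptgs2 was lower in DiBASC2 (log2 -0.60 ± 0.06, adjusted p = 1.80e-08). The doses of the dyes are not given in the sources used here. Fura-2 libraries, at 43.5, 40.4 and 43.8 CPM, and AAV libraries, at 40.9, 45 and 45.6 CPM, overlapped control. The intervals of these log2 changes were -0.05 to 0.19 in Fura-2 and -0.01 to 0.23 in AAV.

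**Figure D4:**
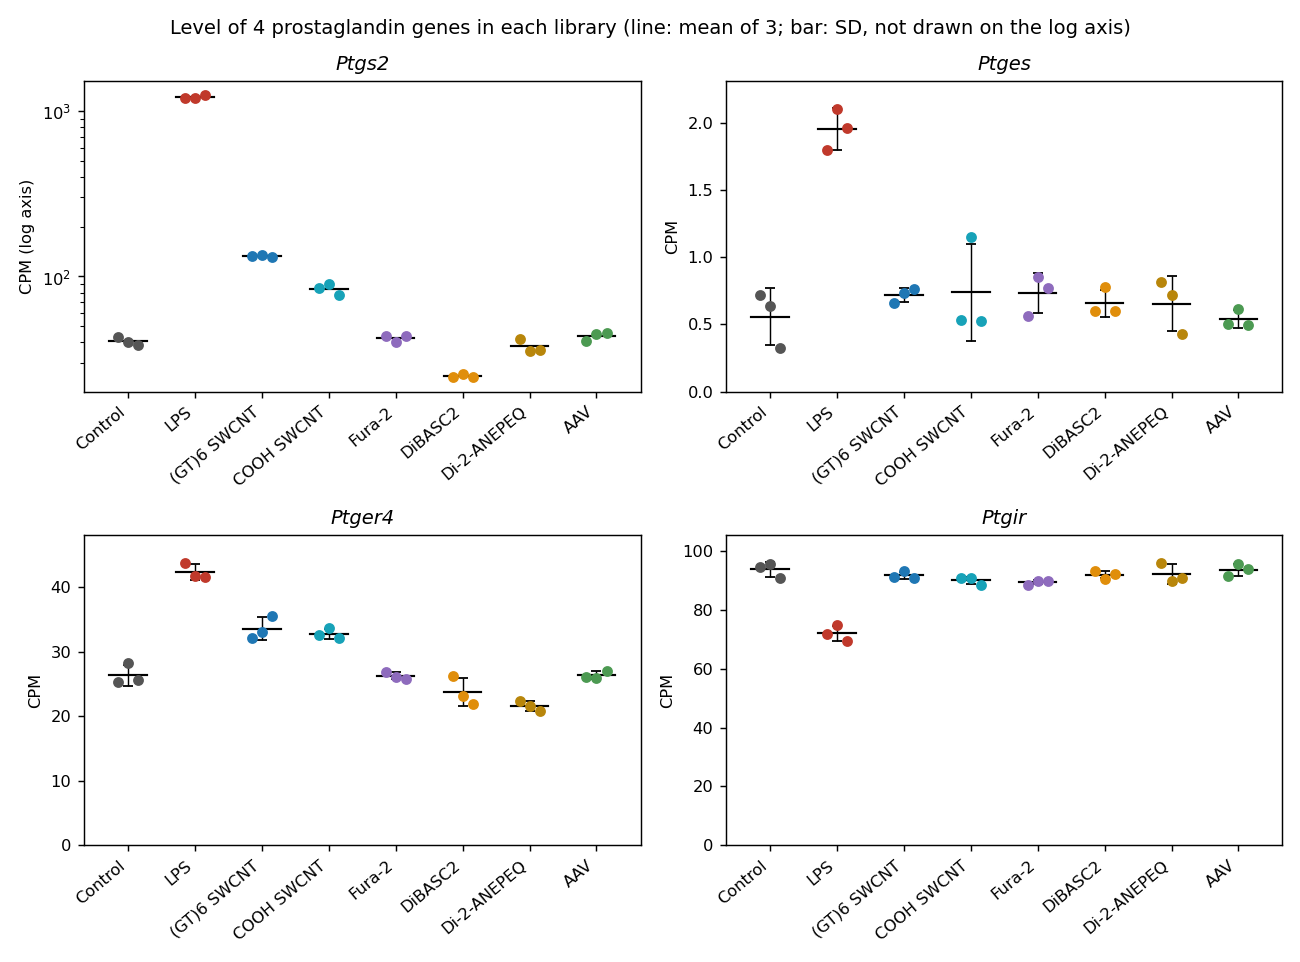
Level of Ptgs2, Ptges, Ptger4 and Ptgir in every library, in CPM, by group. Points are libraries, lines are group means and bars are ± SD (n = 3). Ptgs2 is on a logarithmic axis, without SD bars. The 3 DiBASC2 points of Ptgs2 lie lowest at 24.6 to 25.7 CPM and the 3 LPS points highest at 1190 to 1246 CPM.

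Per kilobase, Ptgs2 was the minor cyclooxygenase in control and the major one in LPS. The ratio of Ptgs2 to Ptgs1 in the control libraries was 0.356, 0.314 and 0.322, and in the LPS libraries it was between 11 and 11.1. It stood at 1.15 ± 0.0346 in (GT)6 SWCNT (SD, n = 3), where each library held slightly more Ptgs2 than Ptgs1, and at 0.668 ± 0.0315 in COOH SWCNT, where none did. In DiBASC2 the ratio was 0.192 ± 0.00620, with its highest library at 0.197 and the lowest control library at 0.314. The ratios in Fura-2 (0.339 ± 0.0108), Di-2-ANEPEQ (0.291 ± 0.0400) and AAV (0.334 ± 0.0174) had a range that met the control range.

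The genes most like Ptgs2 over the 24 libraries, by Pearson's r of log2 CPM among 9492 other genes with a mean of at least 5 CPM, were Tnf (r = 0.996), Pim1 (r = 0.996) and Il1b (r = 0.996). The 24 libraries are 8 groups of 3, so these values rest mainly on the 8 group means. Tnf, a secreted cytokine, averaged 35.5 CPM in control, 1144 with LPS, 92.3 with (GT)6 SWCNT, 68.3 with COOH SWCNT and 23.2 with DiBASC2. Il1b, another cytokine, averaged 9.12, 443, 47.5, 26.5 and 5.76 CPM in the same groups.

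Ptges (ENSMUSG00000050737.13, chromosome 2, 30889471 to 30929863, minus strand) encodes microsomal prostaglandin E synthase 1, the synthase often induced together with Ptgs2. It was close to the filter on low counts, with 13, 15 and 6 reads in control and 33, 43 and 42 reads in LPS. This corresponds to 0.714, 0.638 and 0.320 CPM against 1.79, 2.10 and 1.96 CPM. The groups did not overlap, and the log2 change was 1.79 ± 0.31 (adjusted p = 1.87e-05), a 3.46-fold rise with a 95% interval of 1.16 to 2.44 on the log2 scale. With (GT)6 SWCNT, Ptges read 0.657, 0.731 and 0.762 CPM. With COOH SWCNT it read 0.531, 1.15 and 0.527 CPM. Both overlapped control, and both log2 changes were 0.34 with intervals of -0.41 to 1.09 and -0.39 to 1.08. At this depth, changes within these wide intervals were not detectable. Both nanotube groups were lower than LPS (log2 -1.45 ± 0.30, adjusted p = 2.54e-04, and -1.45 ± 0.29, adjusted p = 1.17e-04). The genes most like Ptges over the 24 libraries were Nfkbid (r = 0.901), Car13 (r = 0.898) and H2-Q4 (r = 0.892), among 9493 genes.

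Ptges2 (ENSMUSG00000026820.5, chromosome 2, 32395896 to 32405772, plus strand) encodes the microsomal prostaglandin E synthase 2. Its control libraries held 46, 45.8 and 44.7 CPM and its LPS libraries 49.4, 49.9 and 50.4 CPM, with no overlap. The log2 change of 0.13 ± 0.05 narrowly missed the threshold (adjusted p = 0.0507). It passed in 5 of 14 alternatives, and its adjusted p ranged from 0.00586 to 0.196. In Di-2-ANEPEQ the gene read 40.1, 40.6 and 37.6 CPM, below all control libraries (log2 -0.21 ± 0.05, adjusted p = 0.0189). That call was lost without Control replicate 1 (adjusted p = 0.0960), 2 (0.0516) or 3 (0.0513) and without Di-2-ANEPEQ replicate 3 (0.135), and the adjusted p ranged from 0.00381 to 0.135 over all alternatives. In AAV it read 39.4, 41.2 and 40.5 CPM, also below control (log2 -0.17 ± 0.05, adjusted p = 0.0419), and this call was lost without any 1 of the 3 control or 3 AAV libraries, at adjusted p from 0.0971 to 0.138, as well as with no filter on low counts (0.106). Between the dyes it was higher in DiBASC2 than in Di-2-ANEPEQ (log2 0.16 ± 0.05, adjusted p = 0.0426), a call lost without DiBASC2 replicate 1 (0.181) or 2 (0.120) and without Di-2-ANEPEQ replicate 1 (0.0709), 2 (0.0570) or 3 (0.176), and also with no filter on low counts (0.127) and by DESeq2 (0.0519).

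Ptges3 (ENSMUSG00000071072.12, chromosome 10, 128058954 to 128077272, plus strand) did not pass in any treatment against control. It measured 272, 237 and 248 CPM in control and 248, 277 and 284 CPM in LPS, which overlap (log2 0.10 ± 0.06, adjusted p = 0.209). Leaving out Control replicate 1 (adjusted p = 0.0432) or LPS replicate 1 (0.0356) brought it past the threshold, and the log2 change was then 0.17 in both. It also passed in COOH SWCNT with no filter on low counts (0.0332) and in Di-2-ANEPEQ in the fit of only the 2 groups (0.0361). It was lower in COOH SWCNT than in LPS (log2 -0.23 ± 0.06, adjusted p = 0.00171) and higher in (GT)6 SWCNT than in COOH SWCNT (log2 0.18 ± 0.06, adjusted p = 0.0199). The latter call was lost without (GT)6 SWCNT replicate 1 (0.0584) or 2 (0.0940) and without COOH SWCNT replicate 3 (0.101), and with length and GC trends removed (0.123). The retrocopy Ptges3-ps holds nearly all of the 19.6% of Ptges3 50-base words that occur in another gene, so reads may be split between the 2 genes. Ptges3-ps itself was lower in DiBASC2 (log2 -0.30 ± 0.09, adjusted p = 0.0305) and in AAV (log2 -0.38 ± 0.09, adjusted p = 0.00729).

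Tbxas1 (ENSMUSG00000029925.13, chromosome 6, 38875404 to 39084585, plus strand), the thromboxane A2 synthase, was near the limit of detection at 28, 29 and 21 reads in control and 30, 37 and 39 in LPS. In CPM these were 1.54, 1.23 and 1.12 against 1.63, 1.81 and 1.82, without overlap. Its log2 change in LPS was 0.44 ± 0.27, with a 95% interval of -0.10 to 0.98, and it passed in no contrast. The DiBASC2 libraries, at 1.87, 2.04 and 1.93 CPM, were also above all control libraries (log2 0.59 ± 0.25, adjusted p = 0.183).

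Ptger4 (ENSMUSG00000039942.15, chromosome 15, 5206661 to 5244187, minus strand) encodes EP4, a prostaglandin E2 receptor that raises cAMP. Control libraries held 25.2, 28.2 and 25.6 CPM and LPS libraries 43.7, 41.7 and 41.6 CPM. The (GT)6 SWCNT libraries held 32.1, 33 and 35.5 CPM and the COOH SWCNT libraries 32.5, 33.7 and 32.1 CPM. Every library of these 3 treated groups lay above every control library, and the LPS libraries lay above those of both nanotubes. The rise was 1.6-fold for LPS (log2 0.68 ± 0.06, adjusted p = 1.64e-11), 1.26-fold for (GT)6 SWCNT (log2 0.34 ± 0.06, adjusted p = 7.39e-05) and 1.24-fold for COOH SWCNT (log2 0.31 ± 0.06, adjusted p = 3.43e-04). Between the nanotubes Ptger4 did not pass (log2 0.03, 95% interval -0.09 to 0.15), unlike Ptgs2.

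Ptger4 was lower in Di-2-ANEPEQ, at 22.4, 21.6 and 20.8 CPM, all below control (log2 -0.29 ± 0.06, adjusted p = 0.00773). That call was lost without Control replicate 2 (adjusted p = 0.0658) or Di-2-ANEPEQ replicate 3 (0.0590), and over all alternatives the adjusted p ranged from 0.00460 to 0.0658. In DiBASC2 the values were 26.2, 23.1 and 21.9 CPM, which overlapped control (log2 -0.15 ± 0.06, adjusted p = 0.176), and without DiBASC2 replicate 1 the gene passed (log2 -0.24, adjusted p = 0.0354). Fura-2 and AAV means were 26.3 ± 0.550 and 26.4 ± 0.580 CPM (SD, n = 3), within the control range. The pseudogene Gm15937 overlaps 1015 bases of Ptger4 exons on the other strand and shares most of the 14.4% of its 50-base words found elsewhere, but it held at most 7 counts in a library. Ttc33 overlaps it by 82 bases.

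Ptger2 (ENSMUSG00000037759.6, chromosome 14, 44988195 to 45003820, plus strand) encodes EP2, the other prostaglandin E2 receptor coupled to cAMP. It had 1 read in Control replicate 1 and 0 in the other 23 libraries. A count of 0 allows up to 3 reads, which is 0.102 to 0.176 CPM depending on the library and covers counting error only. Ptger2 was therefore not detectable above that limit in any group, LPS included.

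Ptgir (ENSMUSG00000043017.9, chromosome 7, 16906490 to 16910905, plus strand) encodes the prostacyclin receptor. The control libraries held 94.8, 95.5 and 91.0 CPM, and the LPS libraries 71.8, 74.8 and 69.6 CPM, which were the lowest of the 24. The log2 change was -0.38 ± 0.04 (adjusted p = 5.71e-10), or 23.2% less. Both nanotube groups were higher than LPS. The log2 difference was 0.35 ± 0.04 for (GT)6 SWCNT (adjusted p = 6.23e-09) and 0.32 ± 0.04 for COOH SWCNT (adjusted p = 2.26e-08). Against control neither passed the test, at 91.7 ± 1.32 and 90.1 ± 1.27 CPM (SD, n = 3), with intervals of -0.11 to 0.05 and -0.14 to 0.02. Per kilobase, the ratio of Ptger4 to Ptgir was 0.141 ± 0.00733 in control and 0.295 ± 0.0137 in LPS, so Ptgir stayed the more abundant of the 2 receptor RNAs in both.

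Counted over the 9 tested genes, 2 passed the test in (GT)6 SWCNT against control, Ptgs2 and Ptger4, both higher. Among all tested genes 20.4% passed there, and 9.9% were higher. COOH SWCNT also changed 2, Ptgs2 and Ptger4, both higher, where 20% of all genes passed and 9.39% were higher. DiBASC2 changed 1, the lower Ptgs2, where 5.47% of all genes passed and 3.64% were lower. Di-2-ANEPEQ changed 2, the lower Ptges2 and Ptger4, where 3.08% passed and 2.39% were lower. AAV changed 1, the lower Ptges2, where 5% passed and 3.16% were lower. With upper-quartile factors the share of higher genes among all called moved from 33.3% to 54.9% in DiBASC2 and from 36.7% to 26.3% in AAV. In COOH SWCNT it moved from 46.9% to 51.6%. Fura-2 changed 0 by edgeR and 0 by DESeq2, where 0.252% of all genes passed by edgeR. At an unadjusted p under 0.05 by edgeR there was 1 in Fura-2, Pla2g4a (log2 -0.13 ± 0.05, adjusted p = 0.271). The same count was 6 in LPS, 5 in (GT)6 SWCNT, 4 in COOH SWCNT, 4 in DiBASC2, 4 in Di-2-ANEPEQ and 2 in AAV. The share of all tested genes at that unadjusted threshold was not computed, so no conclusion is drawn from these counts.

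Against LPS, 5 of the 9 genes differed in (GT)6 SWCNT, where 21.6% of all genes did. Ptgir was higher (1 gene, against 9.63% of all), and Ptgs2, Ptges, Ptges2 and Ptger4 were lower (4 genes, against 11.9%). COOH SWCNT differed from LPS in 7 genes, where 37.8% of all genes did. Ptgs1 and Ptgir were higher there (2 genes, against 18.1% of all; Ptgs1 log2 0.20 ± 0.04, adjusted p = 1.03e-04), and Ptgs2, Ptges, Ptges2, Ptges3 and Ptger4 were lower (5 genes, against 19.7%). The nanotubes differed from each other in 3 genes, where 21.4% of all genes did. Ptgs2 and Ptges3 were higher in (GT)6 SWCNT (2 genes, against 11.9% of all), and Ptgs1 was lower (1 gene, against 9.48%; log2 -0.13 ± 0.04, adjusted p = 0.0210). The Ptgs1 call was lost without (GT)6 SWCNT replicate 1 (adjusted p = 0.157) and without COOH SWCNT replicate 1 (0.125) or 2 (0.115), as well as with no filter on low counts (0.0784). Between the dyes 2 genes differed, where 8.95% of all genes did, with Ptges2 higher in DiBASC2 (against 3.47%) and Ptgs2 lower (against 5.48%). These background splits depended on scaling. With upper-quartile factors, the share of higher genes among all called moved from 44.6% to 57.5% for (GT)6 SWCNT against LPS, from 47.9% to 62.5% for COOH SWCNT against LPS, from 55.6% to 44.4% between the nanotubes and from 38.8% to 63.4% between the dyes.

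The pathway around these genes was followed in 63 further genes, of which 44 were tested. LPS raised 8 and lowered 10, with a median log2 change of -0.07 over the 44. The (GT)6 SWCNT group had 6 higher and 8 lower (median -0.05), and COOH SWCNT had 7 higher and 3 lower (median 0.00). The shares of all tested genes that passed in either direction were 28.3%, 20.4% and 20%, and their medians were -0.01, -0.02 and 0.00. The lists differed in size and kind, and they are described here by role.

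The list for other routes of arachidonic acid release held enzymes and the annexin Anxa1. Of its 9 tested genes, 2 rose and 2 fell in LPS. Pla2g5, a secreted phospholipase A2, rose with LPS (log2 0.21 ± 0.05), with (GT)6 SWCNT (0.58 ± 0.05) and with COOH SWCNT (0.37 ± 0.05), and fell with DiBASC2 (-0.19 ± 0.05). Pla2g6, a calcium-independent phospholipase A2, rose in the same 3 groups by 0.31, 0.27 and 0.29. Pla2g15, the lysosomal phospholipase A2, fell with LPS (-0.87 ± 0.06) and with (GT)6 SWCNT (-0.44 ± 0.06), with LPS libraries at 19.3, 16 and 18 CPM against 31.3, 34.1 and 31.8 in control. Daglb, a diacylglycerol lipase, fell in LPS (-0.44 ± 0.05). Anxa1, a phospholipid-binding annexin, fell in COOH SWCNT (-0.17 ± 0.05). Of the 4 tested genes that return arachidonic acid to lipids, 2 rose in LPS, and Lpcat2, the acyltransferase linked to platelet-activating factor, rose most (0.66 ± 0.08).

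Among 4 tested synthases of other prostanoids, Hpgds, a prostaglandin D2 synthase, fell in LPS (-0.22 ± 0.05) and the rest did not pass there. In COOH SWCNT, Akr1b3 fell (-0.11 ± 0.04), and in (GT)6 SWCNT none of the 4 passed. Among 4 genes of breakdown and transport, Ptgr2 fell with LPS (-0.18 ± 0.05) and with (GT)6 SWCNT (-0.15 ± 0.05), and Zadh2 fell with (GT)6 SWCNT (-0.20 ± 0.06). The other prostanoid receptors were nearly silent: of 7 listed, Ptger1 alone passed the filter, at 0.458 ± 0.112 CPM in control (SD, n = 3), and it passed in no contrast with control. Of 5 tested genes of the leukotriene branch, Cysltr1, a leukotriene receptor, fell with LPS (-0.28 ± 0.08), (GT)6 SWCNT (-0.75 ± 0.08), COOH SWCNT (-0.33 ± 0.08) and Di-2-ANEPEQ (-0.37 ± 0.08). Alox5ap, which helps 5-lipoxygenase act, fell in LPS (-0.19 ± 0.04).

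All 17 genes listed for cAMP signalling downstream of EP2 and EP4 were tested. LPS raised 4 and lowered 4, (GT)6 SWCNT raised 3 and lowered 4, and COOH SWCNT raised 4 and lowered 0. Of all tested genes, 13.8% were higher and 14.5% lower in LPS, and 20.4% and 20% passed in either direction in (GT)6 SWCNT and COOH SWCNT. Nr4a3, an orphan nuclear receptor, held 1.37, 0.894 and 1.17 CPM in control and 6.96, 7.23 and 10 CPM with LPS. It held 3.78, 3.44 and 3.11 CPM with (GT)6 SWCNT and 2.20, 3.21 and 2.27 CPM with COOH SWCNT. All 3 treated groups lay above control, and the log2 changes were 2.84 ± 0.23, 1.61 ± 0.26 and 1.16 ± 0.27. Nr4a1, of the same family, rose by 1.55 ± 0.08, 0.80 ± 0.08 and 1.01 ± 0.08, whereas Nr4a2 fell with LPS (-0.78 ± 0.14) and with (GT)6 SWCNT (-0.40 ± 0.14). Pde4b, a phosphodiesterase that breaks down cAMP, rose in LPS from 35, 34.2 and 38.4 CPM in control to 158, 143 and 152 CPM (log2 2.07 ± 0.06), and by 0.30 ± 0.06 in COOH SWCNT. In DiBASC2, Pde4b (-0.56 ± 0.07) and Nr4a1 (-0.50 ± 0.09) were the 2 genes of this list that fell, in the group where Ptgs2 was also lower. These genes have many regulators besides EP2 and EP4, and the part of prostaglandin signalling in their levels was not tested.

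**Figure D5:**
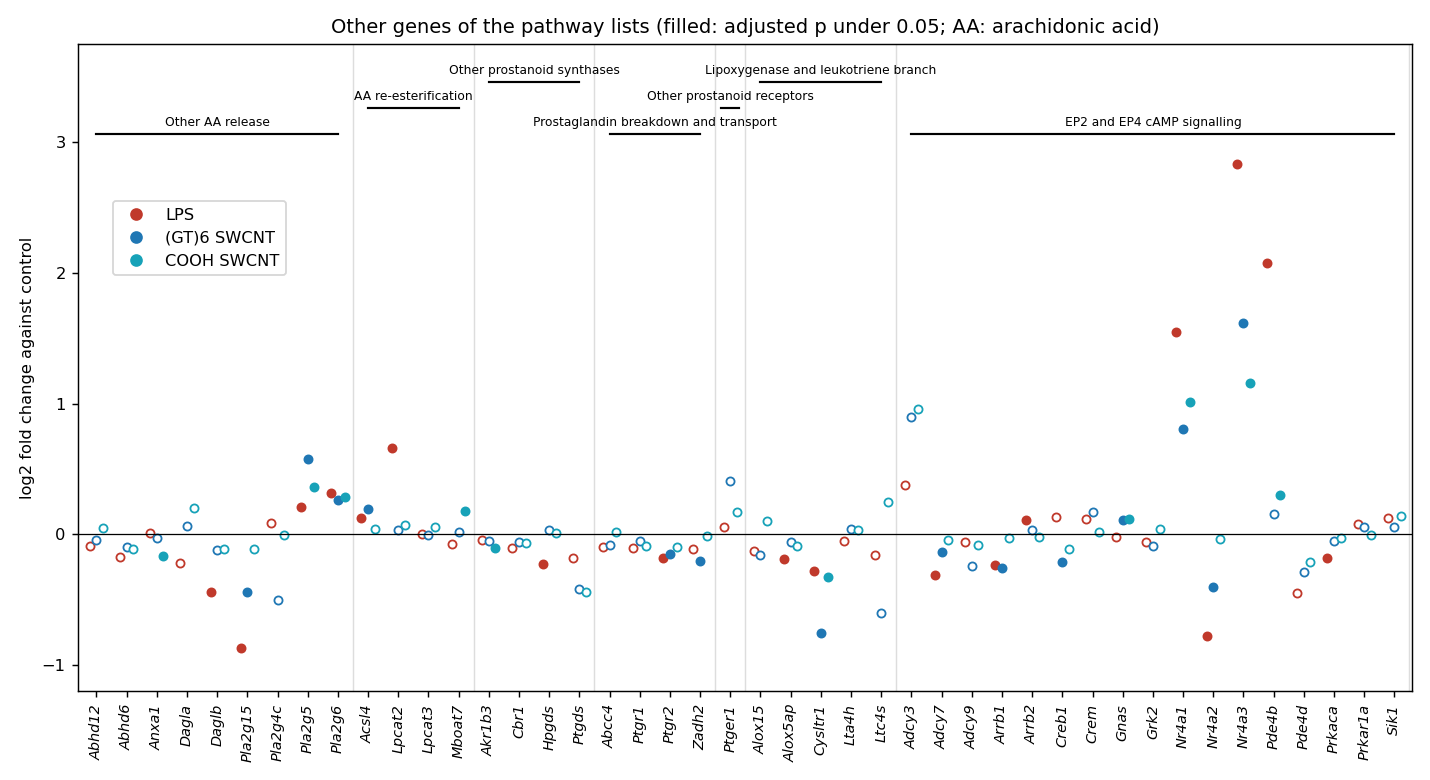
Change of the tested genes of the surrounding pathway against control in LPS, (GT)6 SWCNT and COOH SWCNT, as log2 fold change, grouped by role and filled where the adjusted p was under 0.05. The points above 1 are Nr4a1, Nr4a3 and Pde4b.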

How the data were processed

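SIM-A9 poly-A RNA of 24 libraries was analysed from 1 table of raw read counts per gene that the authors deposited. STAR 2.5.4b and GRCm38.p6 are named in the submitters' processing notes. The counting tool, the strand setting and the treatment of multi-mapped reads are not given in the sources used here. Reads from overlapping genes on opposite strands therefore cannot be told apart. Groups came from sample titles. The treatment labels of the DiBASC2 libraries end in different numbers, and its columns spell the dye DiSBAC2. The spelling of Di-2-ANEPEQ also varies. Index numbers run in blocks of 3 per group, so library order and group cannot be told apart.

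Symbols and positions came from GENCODE M21 on GRCm38. Of 54838 identifiers, 53947 matched with the version suffix, 54809 without it, and 29 did not match. The tests used edgeR 4.0.16 in R 4.3.3. Genes passed filterByExpr at its defaults (13116 genes), library sizes were TMM-scaled, and 1 quasi-likelihood model, with group means as its only terms, covered all libraries (16 residual degrees of freedom, biological coefficient of variation 4.12%). For each of 10 planned contrasts and 1 added later, two-sided p-values were Benjamini-Hochberg adjusted over all 13116 genes. Every adjusted p is from this model unless an alternative setting is named with it. The alternatives also used edgeR's quasi-likelihood test, DESeq2 size factors included. The exception is the DESeq2 test (1.42.0). A standard error is the log2 fold change over the square root of F. CPM use the TMM-scaled library sizes.

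The members and gene lists were chosen with earlier results of these data known. All 10 members are named. One cell type marker is not reported here. Other pathway genes are named for an absolute log2 change of at least 1 in LPS or a nanotube group, as the highest or lowest of a list, or to account for a list's count. Likeness was computed for members with a range of group means of at least 1 on the log2 scale, with a pseudocount of 0.5 CPM. Alternatives were other size factors, other filters, a replicate block, a model of the compared groups alone, DESeq2, leaving out each library, and removal of length and GC trends (added after seeing the data). Each of the 24 replicate pairs differed beyond counting noise (chi-square over its degrees of freedom 2.44 to 19).

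Promoter windows came from RefSeq (GRCm38.p6) and covered 10 of 10 genes in 11 windows. The 7 motifs named with the sequences were searched on both strands.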

Additional observations from a re-analysis of the deposited data

How the results depend on the processing

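Several calls against control held under every alternative that tested the gene. In LPS these were Ptgs2, Ptges, Ptger4, Ptgs1 and Ptgir. In both nanotube groups they were Ptgs2 and Ptger4, and in DiBASC2 Ptgs2. Ptges held at most 43 counts in a library, so the filter on a mean of at least 50 counts left it out. No called change reversed direction. The number of genes called among the 9 did change elsewhere. In DiBASC2 it was 1 to 2 when 1 library was left out. In Di-2-ANEPEQ it was 0 to 2 in such fits, and in AAV it was 0 in all 6 such fits and 0 with no filter on low counts. Between the nanotubes it was 1 to 3, and between the dyes it was 1 to 2 when 1 library was left out, 1 with no filter and 1 with the DESeq2 test. In LPS, Ptges2 also passed with DESeq2 size factors (adjusted p = 0.0316), with a mean of at least 50 counts (0.0333), in the fit of only the 2 groups (0.0444) and with length and GC trends removed (0.00586), and Pla2g4a passed with upper-quartile factors (0.0419). Ptges3 passed in LPS without Control replicate 1 or LPS replicate 1. Against control, Pla2g4a was added in (GT)6 SWCNT without (GT)6 SWCNT replicate 3. It was added in COOH SWCNT without COOH SWCNT replicate 3 and with length and GC trends removed. Ptges3 was added in COOH SWCNT with no filter on low counts and in Di-2-ANEPEQ in the fit of only the 2 groups.

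Replicate numbers did not pair the libraries: the correlation of deviations between same-numbered libraries was -0.13 to 0.09, and 0 of 30 exceeded 0.1. With the replicate number as a block, 6 genes were called in LPS in place of 5, with Ptges2 added (adjusted p = 0.0476), and the counts of the other contrasts were as without it.

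Counts over all genes moved by more than 1.5 times in the weaker contrasts. Fura-2 had 33 calls, with 188 under no filter, 22 with the replicate block, 80 in the fit of only the 2 groups, 85 with the DESeq2 test, 70 with trends removed and 0 to 106 when 1 library was left out. DiBASC2 had 717, with 333 without Control replicate 1 and 459 without DiBASC2 replicate 3. Di-2-ANEPEQ had 404, with 814 in the fit of only the 2 groups and 120 to 418 when 1 library was left out, and AAV had 656 with a lowest value of 157 without Control replicate 3. Between the dyes there were 1174, with a lowest value of 610 without Di-2-ANEPEQ replicate 1. Upper-quartile factors moved the share of higher calls from 48.7% to 35.4% in LPS, from 33.3% to 54.9% in DiBASC2 and from 36.7% to 26.3% in AAV. With these factors the share also crossed 50% in COOH SWCNT against control (46.9% to 51.6%). It did so too in the 2 contrasts of a nanotube with LPS, between the nanotubes and between the dyes. The DESeq2 test gave 48.4% in AAV and 27% between the dyes, and removal of length and GC trends gave 48.5% in AAV. No setting moved the median change of all genes by over 0.1. The causes were not tested. Ptges and Tbxas1, under 60 reads per library, are limited by depth.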

Other observations

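The 2 annotated noncoding neighbours of Ptgs2 were measured beside it. Ptgs2os held 0.879, 0.936 and 1.34 CPM in control and 4.73, 3.96 and 3.69 CPM in LPS, a log2 change of 1.97 ± 0.25 (adjusted p = 4.48e-08), and it did not pass in either nanotube group. Ptgs2os2 held 4.34, 5.23 and 5.13 CPM in control and 12.4, 11.8 and 13.2 CPM in LPS (log2 1.34 ± 0.11, adjusted p = 2.05e-12). In (GT)6 SWCNT it read 6.61, 7.95 and 7.21 CPM, all above control (log2 0.56 ± 0.12, adjusted p = 5.48e-04), and in COOH SWCNT 4.97, 4.21 and 5.47 CPM, which overlapped control (log2 0.00, 95% interval -0.26 to 0.25). The nanotubes differed for Ptgs2os2 (log2 0.56 ± 0.12, adjusted p = 5.31e-04). The use of strand in counting is not given in the sources used here. In GENCODE M21, no exon of another gene overlapped an exon of Ptgs2 on either strand. Of its 4530 distinct 50-base words, 0 occurred in transcripts of another gene. How reads beyond annotated exons were assigned is not known.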
